A study of Homo sapiens with 24 samples.

Results

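The comparison set the middle phase of a scratch-wound time course against its early phase in H838 cells, which come from a human lung cancer of the non-small cell type. The middle phase comprised the 6 arrays taken at 3, 4 and 5 h after scratching, and the early phase the 6 arrays taken at 0.5, 1 and 2 h, which made 12 of the 24 arrays of the series. Arrays were chosen by their labelled time alone, and no measured value entered the choice. The unscratched and later arrays stayed outside the comparison and serve below only as landmarks.

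All 12 arrays measured H838 cells that had grown to a confluent monolayer and had been scratched several times. The monolayer shared its medium across a porous transwell filter with other cells, either HPAEC, which are primary human pulmonary artery endothelial cells, or more H838. At each of the 6 times there was 1 array beside HPAEC and 1 beside H838, so each phase held 3 arrays of each co-culture. Both co-cultures were kept in the endothelial medium, which the labels describe as supplemented with growth factors, a low share of serum and hydrocortisone. All samples are from 1 cell line, and each monolayer also held unwounded cells away from the scratches, so the arrays report an average over both. The labels do not say whether the arrays came from separate cultures, so the spread that the p-values below rest on may be technical to some degree.

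A scratch exposes the cells at its edge to free space and to signals from damaged neighbours. Signalling through ERK and related kinases then switches on immediate early genes without new protein synthesis, and the transcription factors they encode act on later genes. Most immediate early transcripts are short-lived, so their levels drop soon after transcription stops, while enzymes, splicing factors and ribosome assembly factors belong to slower waves.

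Each array reported the fluorescence of bead-bound probes, which is given here on the log2 scale after normalization. The median raw intensity was 117 to 124 on middle arrays and 119 to 130 on early arrays, and 15518 to 17306 probes were detected on middle arrays, against 15488 to 16952 on early arrays. For 2 arrays outside the comparison, the second HPAEC replicates of the unscratched and 24 h groups, 1 label field names H838 as the partner cells while the title and the co-culture field name HPAEC, and the title was followed. Markers fitted the labelled cells in part. EPCAM, CDH2, VIM and NKX2-1, which mark epithelial, motile and lung lineage cells, were detected on all 24 arrays, whereas the epithelial markers KRT7, KRT8, KRT19 and CDH1 were detected on 0 middle and 0 early arrays. KRT18, the keratin partner of KRT8, was detected on 5 of 6 middle and 5 of 6 early arrays and on 21 of 24 in all. Of 18 endothelial markers, 11 were detected on 0 of 24 arrays, among them VWF, CDH5 and KDR, whereas SOX18 was detected on 24 of 24 and EGFL7 on 21 of 24. The summed intensity of the endothelial list was 5297 to 6965 on middle arrays and 4601 to 6115 on early arrays, and of its 4 tested genes 0 passed the limma test and 1 had an unadjusted p under 0.05. Of 9 leukocyte markers on the array, 2 were detected on all middle and 2 on all early arrays, and of 10 fibroblast and smooth muscle markers, 6 were detected on all middle and 6 on all early arrays.

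Between the early and the middle phase, 610 of 10901 tested genes changed (5.6%). Of these, 371 (3.4% of the tested genes) were higher and 239 (2.19%) were lower in the middle phase. The largest falls were in the immediate early transcription factors FOS and EGR1, in ANKRD37 and other genes of the hypoxia response, and in small nuclear and Cajal body RNAs. The largest rises were in RAB7B, a small GTPase of endosome-to-Golgi transport, the long non-coding RNA LINC00472, and MAT2A, the enzyme that makes S-adenosylmethionine. The falls reached further than the rises: 12 genes that fell and 4 that rose changed by more than 1 on the log2 scale, while the median size was 0.40 for falls and 0.41 for rises.

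These calls come from limma with phase, co-culture and BeadChip in the model, two-sided, and a Benjamini-Hochberg adjusted p under 0.05. The median change of all tested genes was 0.01. The 6 middle and 6 early arrays did not overlap for 182 of the 371 rises, 116 of the 239 falls and 96 of the 10291 genes that did not pass, which together is 3.61% of the tested genes. The times of a phase stand as its replicates, so change within a phase counts as spread. The array taken at 0.5 h beside H838 was the only one of its co-culture on BeadChip 1 and carried a weight of 0 in the phase difference. Leaving out 1 array at a time gave 210 to 629 calls. Of the 82 named genes that passed, 43 did so in each of the 11 such fits that left out an array of nonzero weight, and counts of fits below refer to these 11. Passing genes mentioned outside these 82, such as JUN, VEGFA and ENO2, have no count of fits here.

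**Figure D1:**
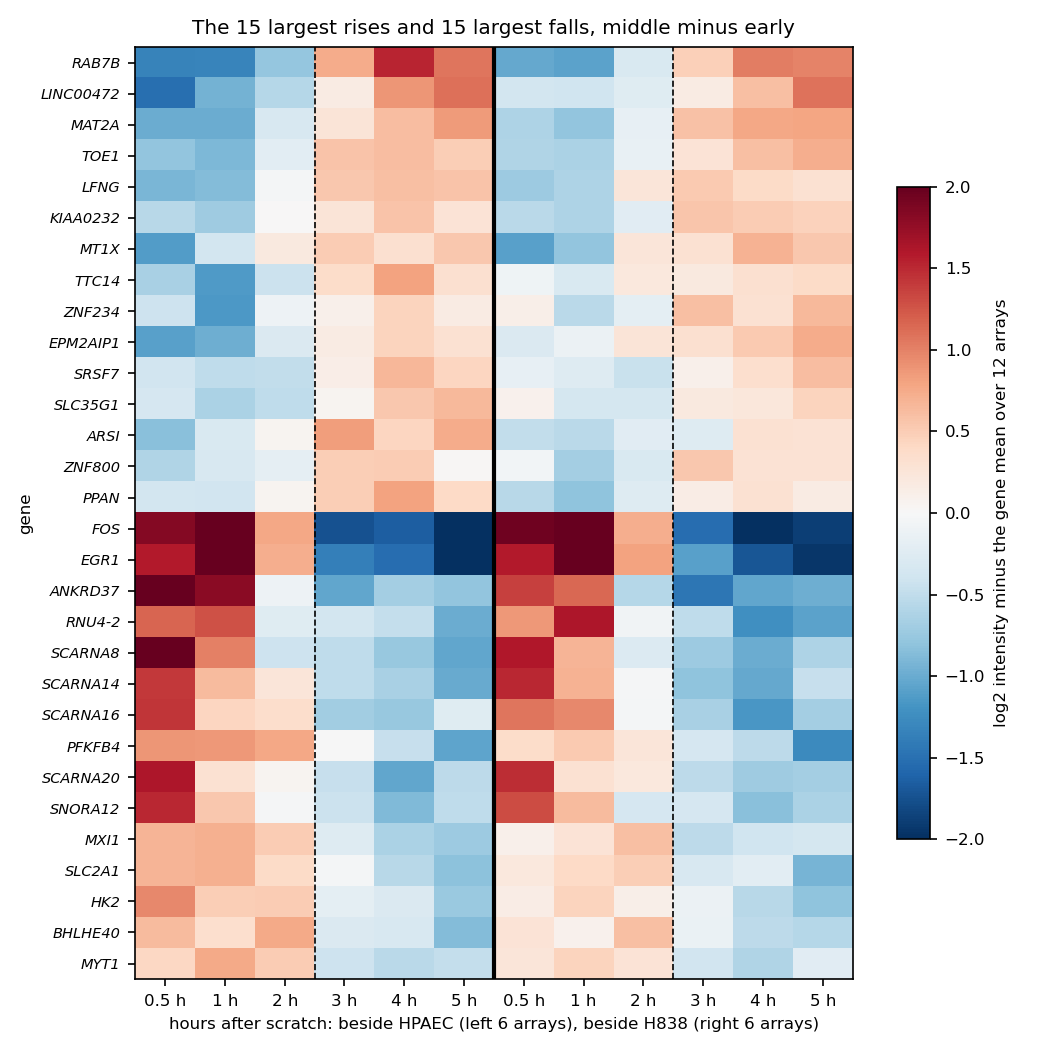
Log2 intensity of the 15 largest rises (upper rows) and the 15 largest falls (lower rows) on each of the 12 arrays, minus the mean of that gene, with colours ending at 2 in either direction. Columns run by hours after the scratch beside HPAEC (left) and beside H838 (right), and dashed lines separate the early from the middle phase; FOS and EGR1 change colour most, from red at 0.5, 1 and 2 h to blue at 3, 4 and 5 h.

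Immediate early transcription factors headed the falls. FOS, a subunit of the AP-1 transcription factor, had a log2 intensity of 4.84, 5.13 and 5.41 (lowest, median and highest) on middle arrays, against 7.67, 8.83 and 9.85 on early arrays. It was detected on 0 of 6 middle and 6 of 6 early arrays and was at least 6.94-fold lower in the middle phase (limma, adjusted p = 0.00143). The bound sets the early mean against the faintest signal that still counted as detected on the middle arrays. Its middle arrays lay below all early arrays in both co-cultures.

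EGR1, a zinc finger transcription factor of the same class, stayed detectable. Its log2 intensity was 7.31, 7.90 and 8.45 on middle arrays and 10.26, 11.11 and 12.33 on early arrays, with no overlap. It fell by 3.32 ± 0.36 (SE) on the log2 scale, which is 9.97-fold (limma, adjusted p = 0.00143). On the 4 unscratched arrays EGR1 lay between 8.79 and 9.19, above every middle array. FOS ran from 5.17 to 5.45 there and was detected on 0 of the 4 arrays.

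The immediate early list held 22 tested genes, of which 0 rose, 5 fell and 17 did not pass. For this and the lists below, the shares over all tested genes were 3.4% higher and 2.19% lower. The median change was -0.19, and 20 of the 22 estimates lay below 0, beside 0.01 and 5237 of 10901 for all tested genes. Besides FOS and EGR1 the list's falls were JUNB and JUN, which pair with FOS in AP-1, and MAFF, a small Maf factor. JUNB was detected on 0 of 6 middle and 5 of 6 early arrays and was at least 1.24-fold lower (adjusted p = 0.00231). MAFF fell by 0.81 ± 0.21 (SE; adjusted p = 0.0438), its arrays overlapped between the phases, and it passed in 2 of 11 fits that each left out 1 array. JUN fell by 0.47, with 9.56 to 10.20 on middle arrays and 10.05 to 10.78 on early arrays.

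FOSB, a close relative of FOS, did not pass (adjusted p = 0.0848) although its estimate was -1.91. Beside HPAEC and H838 it stood at 7.12 and 7.20 at 0.5 h, at 10.29 and 10.64 at 2 h, and at 6.56 and 6.67 at 5 h. FOSB thus had both its lowest and its highest early value at the ends of the early phase, whereas FOS and EGR1 had their highest values at 1 h. MYC and the AP-1 member FOSL2 had estimates of -0.03 each, and SRF, the factor that binds serum response elements, had 0.05.

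**Figure D2:**
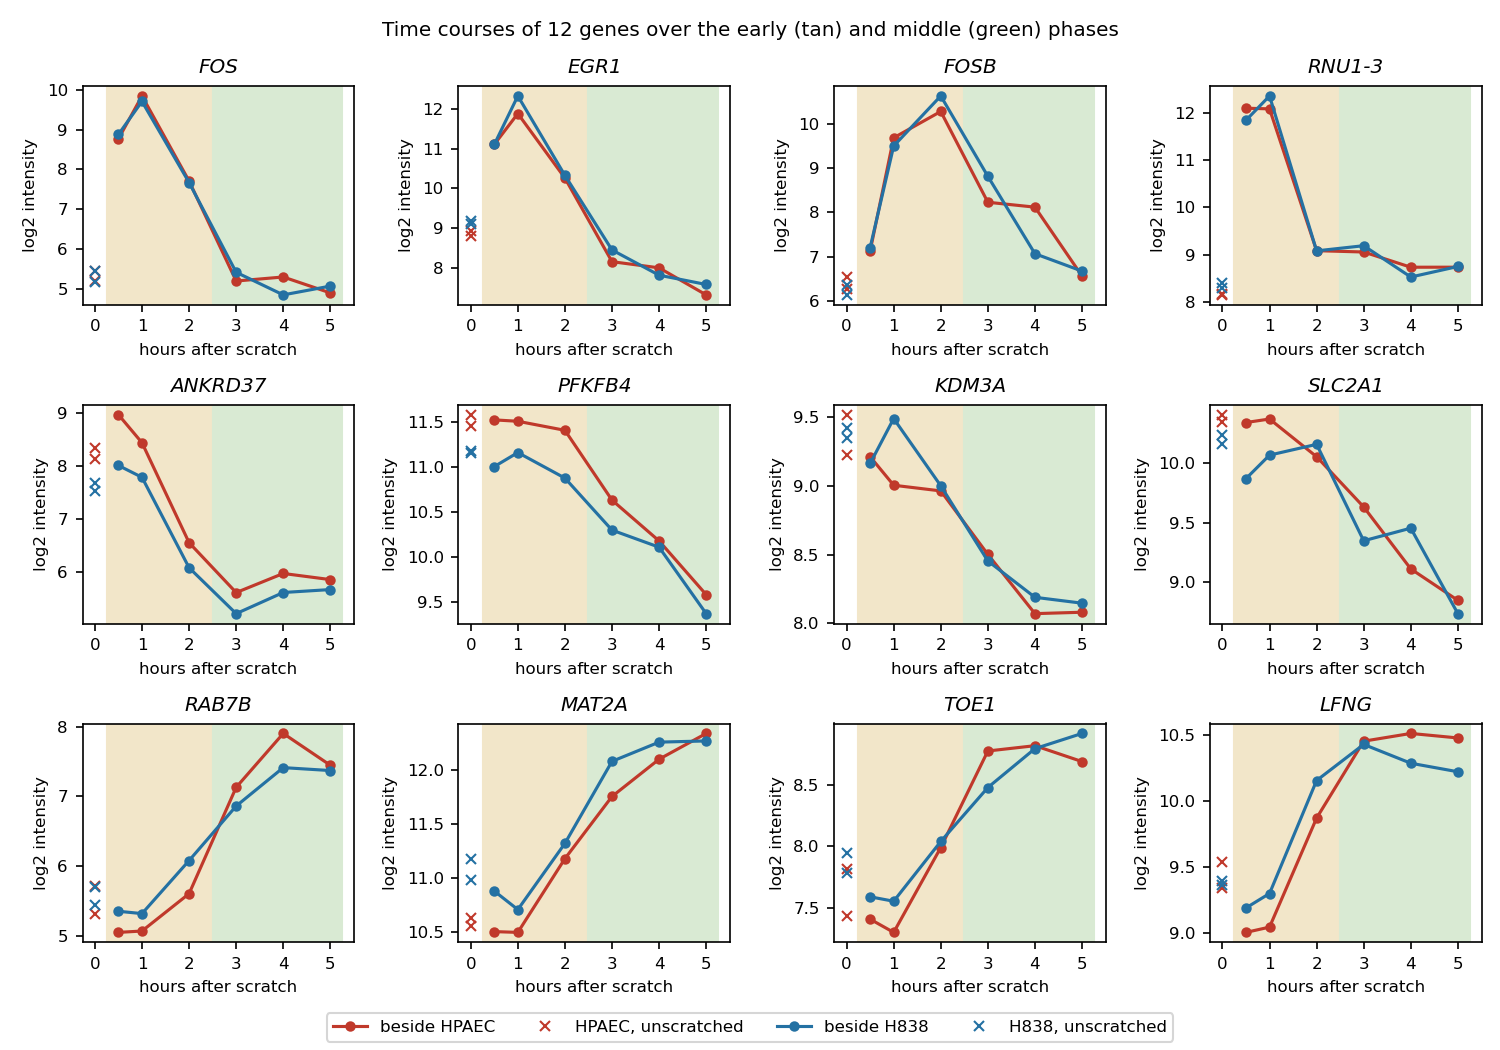
Log2 intensity of 12 genes against hours after the scratch, 1 point per array, with the early phase shaded tan, the middle phase green, and the 4 unscratched arrays as crosses at 0 h. FOS and EGR1 peak at 1 h and FOSB at 2 h, RNU1-3 drops between 1 and 2 h, PFKFB4 declines from 3 to 5 h in both co-cultures, and the genes of the bottom row climb from 2 h on.

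The promoter of EGR1 is shown because it carries the letters of the serum response element, the classic binding motif of SRF at immediate early genes. It is the RefSeq window (GRCh38.p14) of 300 bases around the gene's start, chr5:138465229-138465528 on the plus strand, with 2 matches to the CArG box in capitals.
EGR1: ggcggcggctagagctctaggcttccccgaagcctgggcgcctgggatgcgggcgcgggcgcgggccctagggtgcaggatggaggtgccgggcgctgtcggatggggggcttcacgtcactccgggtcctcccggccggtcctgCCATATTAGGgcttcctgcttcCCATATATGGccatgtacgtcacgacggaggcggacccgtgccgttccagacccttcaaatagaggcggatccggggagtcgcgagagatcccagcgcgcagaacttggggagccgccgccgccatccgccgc
A CArG box stood in the windows of 2 of 17 immediate early genes with a RefSeq promoter (11.8%), in 0.994% of 8855 tested genes and in 1.29% of all 35116 windows, both strands being searched. The cAMP response element TGACGTCA was found in 2 of the 17 and in 3.46% of tested genes. A match describes the letters of the window and is neither a shown site nor a cause.

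Of 16 tested feedback inhibitors of ERK and EGR signalling, 0 rose and 2 fell, with a list median of -0.06. The median was 0.07 beside HPAEC and -0.15 beside H838, but only the HPAEC estimate includes 0.5 h, so the 2 are not alike. DUSP6, a phosphatase that switches off ERK, had 10.46, 10.62 and 10.73 on middle arrays and 10.92, 11.36 and 11.58 on early arrays, and fell by 0.73 ± 0.10 (SE; adjusted p = 0.00398). SPRY2, an inhibitor of receptor-to-ERK signalling, fell by 0.55 ± 0.08 (adjusted p = 0.0065). For both genes the 6 middle arrays lay below all 6 early arrays. SPRY4 had an estimate of -0.87 and NAB2, a corepressor of EGR1, of 0.40, and neither passed (adjusted p of 0.155 and 0.53). Both rose between 1 and 2 h, as the consecutive times below show.

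Of 10 tested factors of mRNA decay and growth arrest, 0 rose and 3 fell, with a median of -0.21. PPP1R15A, which directs a phosphatase to the translation factor eIF2 alpha, fell by 0.84 ± 0.13 (SE; adjusted p = 0.00682). BTG1, an anti-proliferative factor, fell by 0.59, and ZFP36L1, which binds AU-rich elements and hastens decay of such mRNAs, fell by 0.35. BTG1 passed in 1 of 11 fits that each left out 1 array, and had -0.88 beside HPAEC and -0.22 beside H838, the latter without 0.5 h. Among 6 tested genes of the EGF receptor system, 0 rose and the receptors EGFR and ERBB3 fell, by 0.60 ± 0.10 (adjusted p = 0.0111) and 0.54 ± 0.07 (adjusted p = 0.00392). The ligand HBEGF had an estimate of 0.07.

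Genes of the hypoxia response gave the most falls of the lists. Cells mark low oxygen through HIF transcription factors, whose targets include glucose transporters, glycolytic enzymes, histone demethylases and regulators of HIF itself. Of 26 tested hypoxia targets outside glycolysis, 0 rose, 9 fell and 17 did not pass, with a median of -0.25 and 24 estimates below 0. ANKRD37, an ankyrin repeat protein induced by HIF, had 5.20, 5.63 and 5.97 on middle arrays, against 6.08, 7.90 and 8.98 on early arrays. It was detected on 1 of 6 middle and 6 of 6 early arrays and fell by 1.85 ± 0.41 (SE; limma, adjusted p = 0.0262). The arrays of the phases did not overlap, but the gap was narrow, since 2 h beside H838 gave 6.08. With 1 array left out at a time, ANKRD37 passed in 6 of 11 fits, at -2.22 to -1.57. Its largest fall between consecutive times lay at 1 to 2 h, inside the early phase.

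KDM3A, a histone H3 lysine demethylase, fell by 0.91 ± 0.12 (SE; adjusted p = 0.00336). Its levels were 8.07, 8.17 and 8.50 on middle arrays and 8.96, 9.08 and 9.49 on early arrays, clearly apart. BHLHE40, a repressor that also belongs to the circadian system, fell by 0.93 ± 0.15 (adjusted p = 0.00799). MXI1, an antagonist of MYC, was detected on 0 of 6 middle and 5 of 6 early arrays and was at least 1.17-fold lower (adjusted p = 0.00143). INSIG2, which retains the sterol sensor complex in the endoplasmic reticulum, EGLN1, the oxygen-sensing hydroxylase that marks HIF for destruction, WSB1, VEGFA, the vascular growth factor, and FAM162A fell by 0.79, 0.63, 0.59, 0.57 and 0.47.

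Not all hypoxia targets passed, although 19 of the 26 tested had an unadjusted p under 0.05 in limma. DDIT4, an inhibitor of mTORC1, had an estimate of -0.94 and the demethylase KDM4B of -0.56 without passing. BNIP3 and NDRG1, which are widely used hypoxia readouts, had -0.21 and -0.24, ADM had -0.22 and ANGPTL4 had 0.36, and none of these passed. On the unscratched arrays ANKRD37 lay between 7.53 and 8.34 and KDM3A between 9.23 and 9.52. The middle arrays were thus below the unscratched arrays for both genes. For KDM3A the early mean already lay below the unscratched range. At 10, 15 and 24 h the means were 8.19 for ANKRD37 and 9.18 for KDM3A.

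Promoters of ANKRD37 and BHLHE40 are shown because the hypoxia response element core ACGTG stands in them several times. They are RefSeq windows (GRCh38.p14) on the plus strand, chr4:185396591-185396890 for ANKRD37 with 3 matches and chr3:4979187-4979486 for BHLHE40 with 4, in capitals. Where capitals read CACGTG, a match on either strand overlaps the other and both are counted.
ANKRD37: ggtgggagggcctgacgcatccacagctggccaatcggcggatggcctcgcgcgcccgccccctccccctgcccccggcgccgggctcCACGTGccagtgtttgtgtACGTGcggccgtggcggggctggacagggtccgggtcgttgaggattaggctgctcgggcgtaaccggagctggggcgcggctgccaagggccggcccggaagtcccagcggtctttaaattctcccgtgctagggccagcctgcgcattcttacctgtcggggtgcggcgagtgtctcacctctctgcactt
BHLHE40: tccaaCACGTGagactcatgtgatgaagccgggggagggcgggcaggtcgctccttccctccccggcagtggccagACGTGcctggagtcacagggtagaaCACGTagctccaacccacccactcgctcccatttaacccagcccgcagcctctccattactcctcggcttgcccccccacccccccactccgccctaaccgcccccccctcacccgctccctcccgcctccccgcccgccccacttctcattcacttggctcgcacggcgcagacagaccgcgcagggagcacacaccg
Of the hypoxia list's 22 genes with a RefSeq window, 15 (68.2%) held ACGTG on either strand, against 27.2% of the tested genes and 21.4% of all windows. Members were listed as hypoxia targets, which favours this motif. The 22 include genes that did not pass, so the share does not describe the falls. The windows of KDM3A and MXI1 held 0 matches, which says only that these letters are absent from 300 bases.

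Of 24 tested genes of glycolysis and glucose transport, 0 rose and 5 fell, with a median of -0.09 and 21 estimates below 0. PFKFB4, which sets the level of the glycolytic activator fructose 2,6-bisphosphate, had 9.37, 10.14 and 10.63 on middle arrays and 10.88, 11.29 and 11.53 on early arrays, and fell by 1.24 ± 0.19 (SE; adjusted p = 0.00731). SLC2A1, the glucose transporter GLUT1, fell by 1.00 ± 0.16 (adjusted p = 0.00717). HK2, the hexokinase that traps glucose in the cell, fell by 0.93, PFKFB3, which has the same role as PFKFB4, by 0.81 ± 0.09 (adjusted p = 0.00143), and ENO2, an enolase, by 0.59. For these 5 genes the middle arrays lay below all early arrays. LDHA and PGK1, other enzymes of the pathway, had estimates of -0.10 and -0.08 and did not pass. ACGTG stood in 9 of 22 glycolysis windows (40.9%).

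Within the middle phase PFKFB4 had 10.63, 10.18 and 9.58 at 3, 4 and 5 h beside HPAEC, and 10.30, 10.11 and 9.37 beside H838. SLC2A1 had 9.63, 9.11 and 8.85 beside HPAEC, and 9.35, 9.45 and 8.74 beside H838. ANKRD37 differed in shape, with its lowest value at 3 h in both co-cultures.

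Of 26 tested genes of the amino acid and endoplasmic reticulum stress response, 0 rose and 4 fell, with a median of -0.16. DDIT3, the pro-apoptotic factor CHOP, fell by 0.81 ± 0.16 (SE, adjusted p = 0.0192), with -1.13 beside HPAEC and -0.40 beside H838, the latter without 0.5 h. ATF4, its upstream activator, fell by 0.35, and its targets PCK2 and NARS1 fell by 0.32 each; ATF4 and NARS1 passed in 3 and 2 of 11 fits with 1 array left out. ASNS and TRIB3, which ATF4 also drives, had -0.15 and -0.24 and did not pass. Among 16 tested chaperones of the endoplasmic reticulum, 0 rose and 0 fell in limma, 1 had an unadjusted p under 0.05, and their median was -0.00. With median scaling in place of quantile normalization, 1 gene of this list fell.

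Of 38 tested genes of mitosis and the kinetochore, 0 rose and 5 fell, beside 3.4% and 2.19% of all tested genes. Their median was -0.17, and 36 estimates lay below 0. The checkpoint kinases BUB1B and TTK fell by 0.42 ± 0.06 (SE; adjusted p = 0.00731) and 0.36 ± 0.09 (adjusted p = 0.0401), KIF2C, a microtubule-depolymerising kinesin, by 0.35, CDC25C, the phosphatase that activates CDK1, by 0.31, and BUB1 by 0.27, of which TTK and CDC25C passed in 2 and 3 of 11 fits with 1 array left out. CCNB1, the mitotic cyclin, had an estimate of 0.13. With median scaling 0 genes of the list fell and the list median was -0.13, beside a median of 0.05 over all genes in that setting.

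Small nuclear RNAs had the lowest list median of all, -1.37 over 10 tested genes, with 10 estimates below 0, yet only 1 passed. RNU4-2, a gene of the U4 RNA of the spliceosome, had 5.86, 6.34 and 6.71 on middle arrays and 6.85, 8.10 and 8.70 on early arrays, and fell by 1.50 ± 0.33 (SE; adjusted p = 0.0262). The U1 genes RNU1-3, RNVU1-7 and RNVU1-18 had estimates of -2.09, -2.05 and -1.95 with adjusted p of 0.0664, 0.0758 and 0.0658. Their drop lay inside the early phase: RNU1-3 had 12.08 and 12.35 at 1 h and 9.09 and 9.08 at 2 h beside HPAEC and H838, and stayed between 8.53 and 9.19 at 3, 4 and 5 h. Copies of U1 and of U4 are nearly identical, so the probes may not tell the genes of each kind apart. RNU4-2 passed in 4 of 11 fits that each left out 1 array. Of the 10 genes, 8 fell with the authors' normalized table as the start, 9 without background correction and 9 with all 24 arrays in the fit.

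Cajal body RNAs, which guide chemical modification of small nuclear RNAs, were among the largest falls and were grouped only after the results had been seen. SCARNA8, SCARNA14 and SCARNA20 were detected on 0 of 6 middle arrays and on 4, 6 and 6 early arrays, and were at least 1.92-fold, 1.65-fold and 1.87-fold lower (adjusted p of 0.0474, 0.00824 and 0.0224). SCARNA16 fell by 1.30 ± 0.23 (SE) and SNORA12 by 1.05 ± 0.26. With 1 array left out at a time, SCARNA8 passed in 2 of 11 fits and SNORA12 in 4. The largest fall between consecutive times lay inside the early phase for SCARNA8 and SNORA12 (1 to 2 h) and for SCARNA20 (0.5 to 1 h). Among all 85 tested genes named SNORA, SNORD or SCARNA, 1 rose and 5 fell, beside 3.4% and 2.19% of all tested genes. Their median was -0.07. The amplification kit named in the labels primes on poly(A) tails, which mature RNAs of these kinds lack, and which form of them was measured was not tested.

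Of the genes that rose, RAB7B had the largest estimate. It had 6.86, 7.39 and 7.90 on middle arrays and 5.05, 5.34 and 6.08 on early arrays, and was detected on 6 of 6 middle and 1 of 6 early arrays. It rose by 1.92 ± 0.21 (SE; limma, adjusted p = 0.00143), a difference set against early arrays of which 1 of 6 detected it. The phases did not overlap, and the unscratched arrays, at 5.31 to 5.72, resembled the early ones in that 0 of 4 detected the gene. Its mean at 10, 15 and 24 h was 5.92.

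LINC00472 rose by 1.37 ± 0.24 (SE; adjusted p = 0.0116), with 8.02, 8.60 and 8.96 on middle arrays and 6.35, 7.38 and 7.62 on early arrays. TOE1, a deadenylase that trims the ends of small nuclear RNAs, rose by 1.07 ± 0.14 (adjusted p = 0.00387). LFNG, a Fringe sugar transferase that tunes Notch receptors, rose by 0.91 ± 0.19 (adjusted p = 0.0228) and was the 1 rise among 16 tested Notch genes. LFNG arrays were closest at 10.22 for the lowest middle array and 10.16 for the highest early array, taken at 2 h. KIAA0232 was detected on 6 middle and 0 early arrays and was at least 1.40-fold higher, and ARSI, an arylsulfatase, on 5 middle and 0 early arrays and at least 1.26-fold higher. The other genes among the 15 largest rises were MT1X, TTC14, ZNF234, EPM2AIP1, SRSF7, SLC35G1, ZNF800 and PPAN, with changes of 0.77 for PPAN to 0.84 for MT1X. ARSI and TTC14 passed in 4 of 11 fits each with 1 array left out. MYT1, a zinc finger factor of neural cells, was the smallest of the 15 largest falls, at -0.91 ± 0.09 (SE; adjusted p = 0.00143).

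Of 17 tested genes of methionine and polyamine metabolism, 3 rose and 0 fell, with a median of 0.05. MAT2A, which makes S-adenosylmethionine, had 11.76, 12.18 and 12.34 on middle arrays, against 10.49, 10.79 and 11.32 on early arrays, and rose by 1.28 ± 0.16 (SE), 2.42-fold (adjusted p = 0.00248). AMD1, which decarboxylates S-adenosylmethionine for polyamine synthesis, rose by 0.70 ± 0.10 (adjusted p = 0.00682). AZIN1, which frees ornithine decarboxylase from its inhibitor antizyme, rose by 0.40 ± 0.07 (adjusted p = 0.0138), while ornithine decarboxylase itself, ODC1, had 0.12 and did not pass. For MAT2A, AMD1 and AZIN1 every middle array lay above every early array.

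Splicing factors of the SR family, proteins that bind exons and recruit the spliceosome, rose in part. Of 23 tested SR factors and their kinases, 5 rose and 2 fell, with a median of 0.10. SRSF7 had 10.06, 10.34 and 10.62 on middle arrays and 9.45, 9.55 and 9.79 on early arrays, and rose by 0.80 ± 0.11 (SE; adjusted p = 0.00451). SRSF3, SRSF6, RSRP1 and SRSF2 rose by 0.67, 0.63, 0.34 and 0.33. CLK3, a kinase of SR proteins that passed in 2 of 11 fits with 1 array left out, fell by 0.58, and SREK1, a regulator that binds SR proteins, by 0.47.

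Ribosome biogenesis gave the most rises of the lists apart from the ZNF genes. Of 29 tested genes, 8 rose and 0 fell, with a median of 0.19 and 24 estimates above 0. GRWD1, a histone-binding assembly factor, rose by 0.70 ± 0.17 (SE; adjusted p = 0.0394) and RRS1, a factor of large subunit assembly, by 0.68 ± 0.11 (adjusted p = 0.0102), of which GRWD1 passed in 3 of 11 fits with 1 array left out. POLR1B and POLR1C, subunits of the polymerase that transcribes ribosomal RNA, rose by 0.63 and 0.48. NIP7, NOP16, NOP2 and RRP12, factors of pre-ribosome processing, rose by 0.52, 0.52, 0.41 and 0.37. RRS1 was at 9.20 ± 0.11 on middle arrays and 8.47 ± 0.27 on early arrays (SD, n = 6 each), without overlap. The ribosomal proteins themselves gave no call: of 20 tested, 0 rose and 0 fell in limma, 0 had an unadjusted p under 0.05, and their median was 0.00.

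Metallothioneins, small proteins that bind zinc and copper, were higher in the middle phase in 9 of 11 estimates of the list, which includes zinc transporters; 2 rose, 0 fell and the median was 0.24. MT1X had 11.15, 11.36 and 11.53 on middle arrays and 9.72, 10.27 and 11.09 on early arrays, and rose by 0.84 ± 0.22 (SE; adjusted p = 0.0493). MT1E rose by 0.55 ± 0.14 (adjusted p = 0.0412). Their values differed within the early phase: MT1X had 9.72, 10.48 and 11.04 at 0.5, 1 and 2 h beside HPAEC, and 9.76, 10.05 and 11.09 beside H838. MT2A, MT1F and MT1G had 0.19, 0.24 and 0.14 and did not pass. Metallothionein genes are near-identical, so their probes may share signal. With median scaling 0 genes of the list rose, and MT1X and MT1E passed in 2 and 3 of 11 fits that each left out 1 array.

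The promoter of MT1X is shown for TGCGCNC, a form of the metal response element core, to which the zinc sensor MTF1 binds. Other forms of the core were not searched and are not in capitals. It is the RefSeq window (GRCh38.p14) chr16:56682220-56682519 on the plus strand, with 2 matches to TGCGCNC in capitals, searched on both strands.
MT1X: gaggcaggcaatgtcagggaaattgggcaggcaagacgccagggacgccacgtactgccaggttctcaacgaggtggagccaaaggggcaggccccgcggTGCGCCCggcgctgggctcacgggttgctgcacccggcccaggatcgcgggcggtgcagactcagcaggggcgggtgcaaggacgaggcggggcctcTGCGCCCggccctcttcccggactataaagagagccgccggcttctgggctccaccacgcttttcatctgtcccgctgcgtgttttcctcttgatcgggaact
TGCGCNC stood in 3 of 7 windows of the metallothionein and zinc list (42.9%), in 31.7% of tested genes and in 20% of all windows, so these letters are common. The shares do not cover other forms of the core.

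HMOX1, which degrades haem, rose by 0.59 ± 0.12 (SE; adjusted p = 0.0234), and SRXN1, which restores oxidised peroxiredoxins, by 0.52 ± 0.10 (adjusted p = 0.0192), as 2 of 15 tested genes of the NRF2 list. The heat shock genes HSPA6 and BAG3 rose by 0.69 and 0.41, as 2 of 19. HSPA6 was dim, being detected on 5 of 6 middle and 3 of 6 early arrays. Of 10 tested glucocorticoid-responsive genes, CEBPD and FKBP5 rose by 0.42 and 0.38 and TSC22D3 fell by 0.45. With 1 array left out at a time, HSPA6 passed in 3 of 11 fits, BAG3 in 5 and TSC22D3 in 4.

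Of 27 tested S phase genes, 3 rose and 1 fell, beside 3.4% and 2.19% of all tested genes, with a median of -0.00. CCNE1, the cyclin that drives entry into S phase, had 9.73, 9.88 and 10.16 on middle arrays and 9.21, 9.29 and 9.44 on early arrays, and rose by 0.60 ± 0.07 (SE; adjusted p = 0.00188). CDC25A, a phosphatase that activates CDK2, rose by 0.30 and FEN1, a flap nuclease of replication, by 0.26, while CDT1, a licensing factor, fell by 0.37. With 1 array left out at a time, CDC25A passed in 3 of 11 fits, FEN1 in 4 and CDT1 in 1. The histone genes H2BC8 and H2AC6 rose by 0.56 and 0.31, as 2 of 19 tested, and passed in 4 and 1 of the 11 fits. Histone genes resemble each other closely, and their probes may share signal.

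Genes whose symbol starts with ZNF mostly encode zinc finger proteins, and the list also holds antisense RNAs and pseudogenes such as ZNF674-AS1 and ZNF876P. Of 320 tested, 16 rose (5.0% of them, beside 3.4% of all tested genes) and 3 fell (beside 2.19%), with a median of 0.08 and 217 estimates above 0. The largest rises were ZNF234, ZNF800, ZNF343 and ZNF239, at 0.84, 0.78, 0.75 and 0.73. ZNF800 had 8.37, 8.74 and 8.89 on middle arrays and 7.66, 8.04 and 8.30 on early arrays, and its phases did not overlap. The share that rose is near that of all genes.

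**Figure D3:**
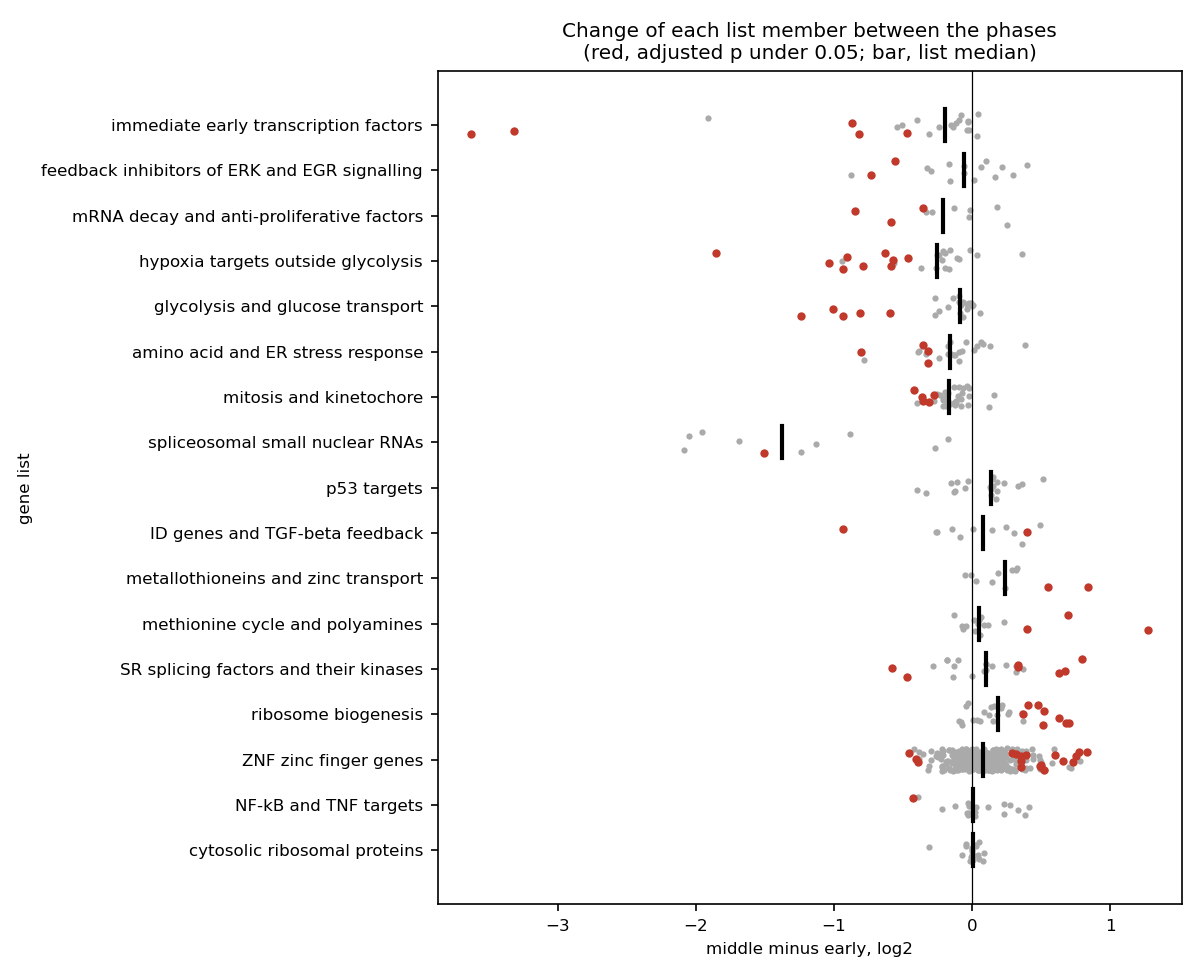
Change of each tested member of 17 gene lists, middle minus early on the log2 scale, with members past the threshold in red, the others in grey, and the list median as a bar. All red points lie left of 0 in the top 8 lists, right of 0 for metallothioneins, methionine and polyamines and ribosome biogenesis, and on both sides for SR factors and ZNF genes.

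Other lists held few calls, beside 3.4% higher and 2.19% lower among all tested genes, and counts this small say little about a list. Of 20 tested NF-kB and TNF targets, 0 rose and 1 fell (REL, -0.43), and CXCL8 and NFKBIA had -0.02 and 0.23. REL was dim, being detected on 1 of 6 middle and 4 of 6 early arrays. Of 21 p53 targets 0 passed in limma and 6 had an unadjusted p under 0.05, with a median of 0.14 and CDKN1A at 0.37. Of 16 genes of migration, integrins and proteases 1 rose, PLAUR, the urokinase receptor, by 0.33 ± 0.08 (SE; adjusted p = 0.0315). In the list of ID genes and TGF-beta feedback BAMBI, a decoy receptor, rose by 0.40 and BHLHE40 fell; among YAP targets AMOTL2 fell by 0.38; in the BCL2 family BOK rose by 0.37. With 1 array left out, PLAUR passed in 3 of 11 fits and AMOTL2 in 1. DBP, an output factor of the circadian clock, fell by 0.73, beside BHLHE40 the only fall of 13 tested clock genes. SNHG15, a small nucleolar host gene, rose by 0.43. By limma 0 passed among 17 contractile genes, 21 of cholesterol and fatty acid synthesis, 13 interferon-stimulated genes and 8 of the MondoA list, with 0, 2, 1 and 1 at an unadjusted p under 0.05.

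To place the step in time, consecutive hours were compared in a model of all 24 arrays with 1 mean per time, co-culture and BeadChip as terms. Most single-hour calls came at 1 to 2 h, inside the early phase. Between 0.5 and 1 h 8 genes rose (0.0734%) and 9 fell (0.0826%), between 1 and 2 h 65 rose (0.596%) and 36 fell (0.33%), between 2 and 3 h 10 rose (0.0917%) and 19 fell (0.174%), between 3 and 4 h 1 fell (0.00917%), and between 4 and 5 h none passed, with 474 at an unadjusted p under 0.05. Each of these comparisons rests on 2 arrays per time. Without the 2 HPAEC arrays of disagreeing labels the steps gave 7, 97, 19, 1 and 0 calls in order of time.

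Between 0.5 and 1 h FOSB rose by 2.41, ZNF568 by 1.32 and EGR1 by 1.04, and SCARNA20, SERPING1 and SNORD13 fell by 1.21, 1.14 and 1.13. Between 1 and 2 h NAB2, AEN and SPRY4 rose by 1.45, 1.12 and 1.10, and RNVU1-7, RNU1-3 and RNVU1-18 fell, at -3.17, -3.13 and -2.91. Between 2 and 3 h RAB7B, LCMT1-AS1 and BEND3 rose by 1.15, 0.94 and 0.85, and EGR1 and FOSB fell, at -1.99 and -1.94, as did FOS, for which 3 h has only a bound. Between 3 and 4 h the 1 fall was MNT, a partner of MAX that opposes MYC, by 0.73. SPRY4 thus rose into 2 h and then fell by 1.08 to 3 h, which left no call between the phases.

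For each gene the interval with the largest move in the direction of its phase difference was noted. It was 2 to 3 h for 262 of 371 rises (70.6%) and 177 of 239 falls (74.1%), beside 34.8% of all tested genes. This interval is the only one that spans both phases, so the choice of genes favours it. It was 1 to 2 h for 64 rises (17.3%) and 32 falls (13.4%), beside 23.8% of all tested genes. MT1X and LFNG were among these rises, and ANKRD37, RNU4-2, JUN and BTG1 among these falls.

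**Figure D4:**
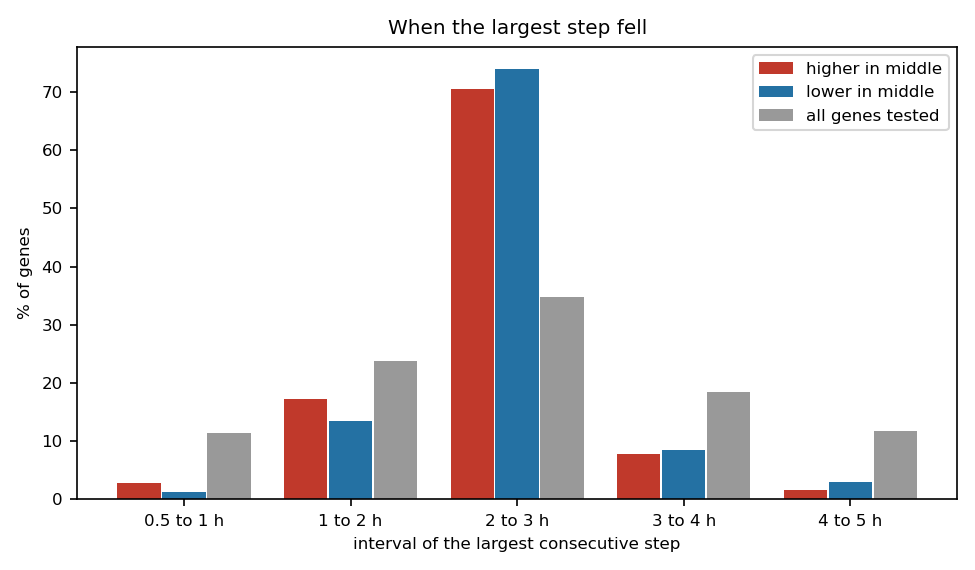
Percentage of genes whose largest consecutive move, in the direction of their phase difference, fell into each interval, for the 371 rises (red), the 239 falls (blue) and all 10901 tested genes (grey). The interval from 2 to 3 h holds 70.6% of rises, 74.1% of falls and 34.8% of all genes.

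The 4 unscratched arrays were not part of the comparison and show where each phase stood relative to the unwounded monolayer at 0 h. No unscratched array was taken at a later time, so time since the scratch and time in culture cannot be told apart. For 325 of 371 rises (87.6%) the middle mean lay above the range of the unscratched arrays, beside 18.3% of genes that did not pass. For 278 rises (74.9%) the early mean lay within that range, near the 74.7% of genes that did not pass. For 207 of 239 falls (86.6%) the middle mean lay below the unscratched range, beside 20.2%. For 172 falls (72.0%) the early mean lay within it. Genes were called on these same middle arrays, which favours middle means outside the range. Genes that did not pass are therefore no neutral measure for them. Only 40 falls (16.7%, beside 11.3% of genes that did not pass) had an early mean above the unscratched range, as FOS, EGR1 and DUSP6 did. PFKFB3 and PFKFB4 were among the falls with an early mean within the unscratched range and a middle mean below it. KDM3A and SLC2A1 already had an early mean below that range. At 10, 15 and 24 h the mean was above the unscratched range for 52.6% of rises, beside 19.6% of genes that did not pass. It was below the range for 48.1% of falls, beside 19.6%. Without the unscratched HPAEC array of disagreeing labels, the middle mean lay above the range of the other 3 for 328 rises (88.4%) and below it for 212 falls (88.7%), beside 21.7% and 24.2% of genes that did not pass. The early mean then lay within it for 250 rises (67.4%) and 157 falls (65.7%), near the 66.5% of genes that did not pass.

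The step was then compared between the co-cultures. All HPAEC arrays of the 2 phases lay on BeadChip 1, and all H838 arrays of nonzero weight on BeadChip 2. An effect of the partner cells on the step therefore cannot be told apart from an effect of the BeadChip. Nor can it be told apart from the early times used, since 0.5 h counts only beside HPAEC. The interaction of phase with co-culture passed for 0 of 10901 genes (limma, smallest adjusted p = 0.742), with 596 at an unadjusted p under 0.05. This does not show that the co-cultures acted alike, because each phase has 3 arrays per co-culture and 7 residual degrees of freedom were left. Within BeadChip 1, where all HPAEC arrays lay, and BeadChip 2, where 5 of the 6 H838 arrays lay, the estimates correlated across 10901 genes with r = 0.50 (Spearman's rho 0.41). These estimates share no array, and genes are not independent replicates. All 610 called genes had the same sign in both, which their selection on the pooled difference partly fixes. Fitted alone, 0 genes passed in either co-culture, with 1661 beside HPAEC and 1307 beside H838 at an unadjusted p under 0.05.

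**Figure D5:**
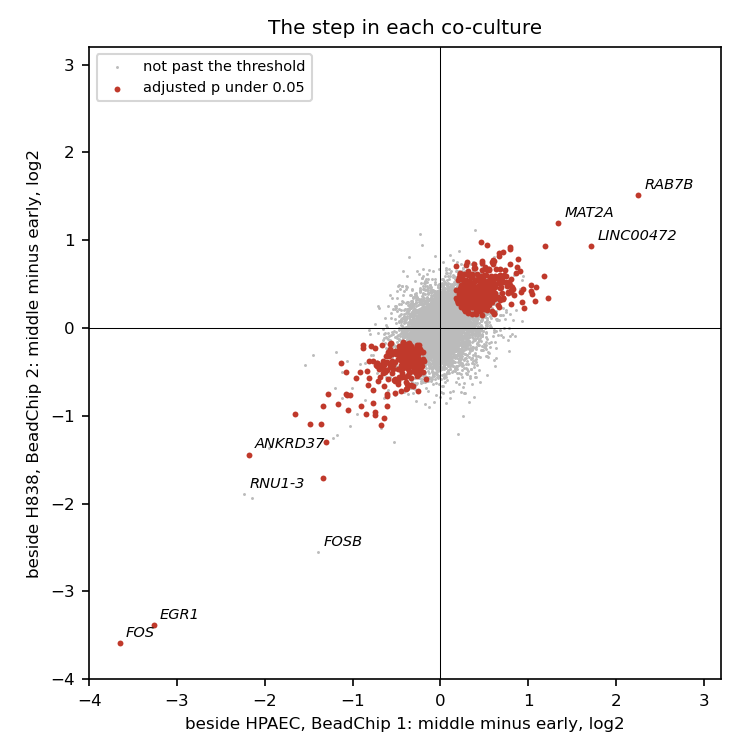
Change of each tested gene, middle minus early on the log2 scale, beside HPAEC on BeadChip 1 (horizontal) and beside H838 on BeadChip 2 (vertical), with genes past the threshold of the pooled test in red. The vertical estimate holds no 0.5 h array. FOS and EGR1 lie far down the diagonal, RAB7B, MAT2A and LINC00472 lie at the upper right, and RNU1-3 and FOSB are grey despite their distance from 0.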

How the data were processed

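Biotinylated cRNA from total RNA was hybridized to Illumina bead arrays, per the labels' protocols. The deposited non-normalized table gives the intensity of each probe's beads on the linear scale. Per the file headers each intensity has a detection p-value, which tells the probe from background. The deposited series matrix holds a linear intensity normalized by the authors, with column medians of 116.46 to 116.55, and served as an alternative. What software the authors used is not given in the sources used here.

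From the deposited intensities, log2 values were made in this order: background correction by limma's normal-exponential model with the detection p-value (offset 16), quantile normalization of all 24 arrays, and the logarithm. Of 47286 probes, the supplied annotation gave 30080 a single symbol and 8 several, and 17198 were not listed. For 30041 the Entrez identifier was found in the RefSeq gene table, and 0 symbols changed. A probe was kept if 2 or more of the 12 arrays detected it at a p-value under 0.01 (18489 probes, of which 14406 had a gene), and the brightest stood for its gene, which left 10901 genes. Where 0 arrays of a phase detected a gene, a bound on the fold is given, with the higher of the array's faintest detected signal and the probe's own signal as the floor.

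Tests were run in limma 3.58.1 (R 4.3.3; data.table, version 1.17.8). The phase model had 8 residual degrees of freedom, the interaction model 7 and the model of times 12. Simulated data held 10901 genes, of which 200 were changed. There the phase model recovered 79% of changes of 0.5 and 99% of changes of 1 on the log2 scale. It made 9 false calls, and 0 calls in data without change. The simulated noise was normal and independent between arrays, and the phase shift was constant. Change within a phase and shared cultures were not simulated, so these shares need not hold for the real arrays. The number of arrays limits the precision.

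Named genes are the 15 largest rises and falls past the threshold with the same sign within both BeadChips, up to 4 called members per list, and 3 per direction for each consecutive step. Further list members are named to illustrate a list and were chosen after their values were seen. Members and lists were chosen with earlier results of these data known. Lists are described by counts and medians, without a test. Promoters are 300-base windows of the RefSeq table, the first listed for a symbol.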

Additional observations from a re-analysis of the deposited data

Results flagged for a closer look

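Among the named genes, 188 groups of 6 arrays (94 genes in each phase) were searched for 1 array that stood far from the other 5 relative to the range of the group, and 5 were found. Chance marks about 1 in 20 groups. In the middle phase TTC14 reached 7.34 at 4 h beside HPAEC, where the next array had 6.92. At the same array BTG1 had the lowest middle value, 8.92, with the next at 9.34. SRSF3 was lowest at 3 h beside HPAEC, at 9.87, with the next middle array at 10.25. The antisense RNA LCMT1-AS1 was highest at 3 h beside H838, at 6.66, with the next at 6.28. In the early phase FEN1 was highest at 2 h beside H838, at 10.71, with the next at 10.63.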

How the results depend on the processing

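None of the 82 named genes that passed reversed its direction under the alternatives run. The phase comparison gave 610 calls (371 higher, 239 lower). Median scaling gave 227 (154 higher, 73 lower), of which 221 were among the 610, and the share of higher calls was 67.8%, against 60.8%. No filter on dim probes gave 349 (206, 143), a robust prior with intensity trend 921 (564 higher), all 24 arrays in the fit 1228 (719, 509), and omission of both 0.5 h arrays 328 (201, 127). HPAEC arrays alone and H838 arrays alone gave 0 calls each (0 higher, 0 lower), where 563 and 431 of the 610 genes had an unadjusted p under 0.05. Leaving out each array in turn gave 210 to 629 calls, 127 to 393 higher and 78 to 264 lower. The count was 328, 251, 213 and 248 without the HPAEC arrays of 0.5, 1, 4 and 5 h, and 210, 354 and 300 without the H838 arrays of 1, 4 and 5 h. Of these 82 named genes, those that passed in under 5 of the 11 fits that left out an array of nonzero weight were AMOTL2, BTG1, CDT1, H2AC6, CLK3, MAFF, MT1X, NARS1, SCARNA8, TTK, ATF4, CDC25A, CDC25C, GRWD1, HSPA6, MT1E, PLAUR, ARSI, FEN1, H2BC8, RNU4-2, SNORA12, TSC22D3 and TTC14. Passing genes mentioned outside the 82, such as JUN, VEGFA and ENO2, have no such count. Their absence from this list does not mark them as stable. The interaction gave 0 calls in every setting run. Of the consecutive steps, 0.5 to 1 h gave 4 calls with median scaling and 4 with detection on all 24 arrays, 7 without the 2 arrays of disagreeing partner labels, a setting added after the data were seen, and 5 to 14 with 1 array left out, against 17 as reported. The step from 1 to 2 h gave 39 to 113 with 1 array left out, against 101. The step from 2 to 3 h gave 12 with median scaling, 48 with the authors' normalized table, 19 without those 2 arrays and 6 to 41 with 1 array left out, against 29. The step from 3 to 4 h gave 0 with median scaling, 0 with the authors' table and 0 to 2 with 1 array left out, against 1, and 4 to 5 h gave 0 to 0. The causes of these differences were not tested. No paired analysis was possible because the 6 middle and 6 early arrays carry no replicate numbers in the labels. With median scaling the list medians of the endoplasmic reticulum chaperones and S phase genes were 0.05 and 0.00, in place of -0.00 each. Genes not detected in a phase have only a bound there.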
